A study of Drosophila melanogaster with 20 samples.

Results

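The genes described here build the chemical synapse of Drosophila melanogaster. They were 38 genes, picked by their FlyBase symbols for roles at the active zone, in vesicle fusion and recycling, and in synaptic adhesion, among the 17558 gene rows of a table of read counts. The choice went by gene names, with earlier results of these data known. All 38 were in the table and 36 of them passed the minimum on low counts (more than 10 normalized counts on average in the 20 libraries) and were tested. The remaining pair, stnA and stnB, had 0 counts in every library. They are annotated with identical exons (8332 bp on the X chromosome, 22980722 to 23004648, minus strand, BDGP6), so a read from this stretch names no single gene, and their listing at 0 says nothing about their RNA.

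Total RNA had been sequenced from adult heads taken 1 day after eclosion, in 5 libraries for each of 4 genotypes. Wild type was w1118. Per the study's methods, Δfne females carried Df(1)fneΔ over fneKOZ2 and Δfne males carried either allele. Δrbp9 flies carried rbp9P2690 over the deficiency Df(2L)ED206, and ΔfneΔrbp9 flies combined both genotypes. The fne and rbp9 alleles are null alleles. FNE and RBP9 are RNA-binding proteins of the neuronal ELAV family, and the study asked which RNAs need both of them. No group shared a deletion or treatment with wild type, and the mutant chromosomes came from other stocks than w1118, so the loss of a protein and the rest of the genetic background cannot be told apart. The heads of males and females were pooled. In such bulk samples, fewer cells of a type and less RNA per cell cannot be told apart either.

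At a chemical synapse, vesicles filled with transmitter dock at the active zone, a protein scaffold that holds them beside calcium channels. Fusion is driven by SNARE proteins: synaptobrevin on the vesicle pairs with syntaxin and SNAP25 on the plasma membrane, with help from Unc18 and Unc13 proteins. Synaptotagmins sense the calcium that triggers fusion and complexin clamps the assembled SNAREs. NSF, an ATPase, and its adaptor alpha-SNAP then pull the spent SNARE complexes apart, and dynamin and its partners retrieve the membrane by endocytosis. Neurexin and the neuroligins hold the presynaptic and postsynaptic sides together. Temperature-sensitive mutants of comt (NSF) and shi (dynamin) paralyse flies, which made both genes founding tools of synapse research.

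Library totals ran from 10289950 to 25325636 counts. The targeted genes followed the labels: Rbp9 had 433.9 to 503.9 CPM (counts per 1000000 of the library, scaled by TMM) in wild type and 16.7 to 20.5 in the genotypes without RBP9, and fne had 178.8 to 211.1 CPM in wild type and 76.1 to 96.9 in those without FNE. Markers of other cells varied between genotypes, and their part in the results was not tested. Summed over 4 neuron markers in the table (elav, nrv3, Appl and futsch), the level was 4647 ± 93.7 CPM in wild type (SD, n = 5; range 4551 to 4804), with ranges of 4488 to 5019 in Δfne, 4115 to 4416 in Δrbp9 and 4372 to 4712 in ΔfneΔrbp9. The 8 glial markers summed to 4143 to 4819 CPM in wild type, 4481 to 4859 in Δfne, 3844 to 4225 in Δrbp9 and 3950.1 to 4120.0 in ΔfneΔrbp9. Tested with edgeR against wild type, 2 of them were lower and 1 higher in Δfne at an adjusted p below 0.01. In Δrbp9 3 were lower, among them moody (log2 fold change -0.49), and wrapper was higher (0.33). In ΔfneΔrbp9 4 were lower and 0 higher. The 8 photoreceptor markers stood at 86.1% of wild type in Δrbp9 and at 101% in ΔfneΔrbp9. At the same threshold 5 of them, among them trp (-0.50), were lower and 0 higher in Δrbp9. In the double mutant trp (-0.41) and trpl (-0.32) were lower while chp (0.39) was higher. In Δfne trpl was lower (-0.60) and norpA higher (0.43). Muscle markers stood at 81.4% of wild type in Δrbp9 and at 87.2% in ΔfneΔrbp9. Their ranges were 18784 to 24410 CPM in wild type, 16592 to 18610 in Δrbp9 and 17319 to 19708 in ΔfneΔrbp9. Of the 7 muscle markers tested with edgeR, 1, Mhc, had an adjusted p below 0.01 against wild type in each of these mutants. Its log2 fold changes were -0.51 and -0.58, and 0 and 1 of the 7 had a positive one. The fat body sum varied from 5347 to 27571 CPM within wild type alone. Of its markers, Lsp2 was lower in Δfne (-1.85) at the same threshold, and Lsp2 (1.16) and AkhR (0.57) were higher in ΔfneΔrbp9. In Δrbp9 AkhR was higher (0.36) and Lpin lower (-0.27). No marker in the table was at 0 in any library.

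The members were expressed at widely different levels in wild-type heads. Levels between genes are compared per length, as CPM per kb of merged exons. By this scale 5 of the 6 highest members in wild type were of the SNARE and disassembly group, while Syx1A (33.1) and Nsf2 (16.3) of the same group came far lower. Snap25, the fly SNAP25, stood highest at 234 ± 12.4 (SD, n = 5), rank 305 of 17252 annotated genes. The complexin gene cpx followed at 215 ± 7.59, and its libraries overlapped those of Snap25. The vesicle SNARE nSyb (173 ± 6.16) lay apart from both. The SNAP adaptor alphaSnap (153), the Unc18 homolog Rop (147) and comt (129.8) came next, each overlapping its neighbour in the order. Among vesicle-associated and priming genes Cadps, which encodes the priming factor CAPS, was highest per length (123), and among endocytic genes shi (114). Scaffold genes were lower, led by unc-13 at 66.0 and followed at a distance by brp, the Bruchpilot gene of the active zone T-bar, at 32.5. The 4 neuroligin genes were among the 7 lowest tested members, with Rim, Sytbeta and Rph, and ran from 15.3 for Nlg2 to 3.94 ± 0.674 for Nlg1, at rank 7962. Exons of all isoforms enter the length, so a gene with long exons that heads do not use reads low on this scale.

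**Figure D1:**
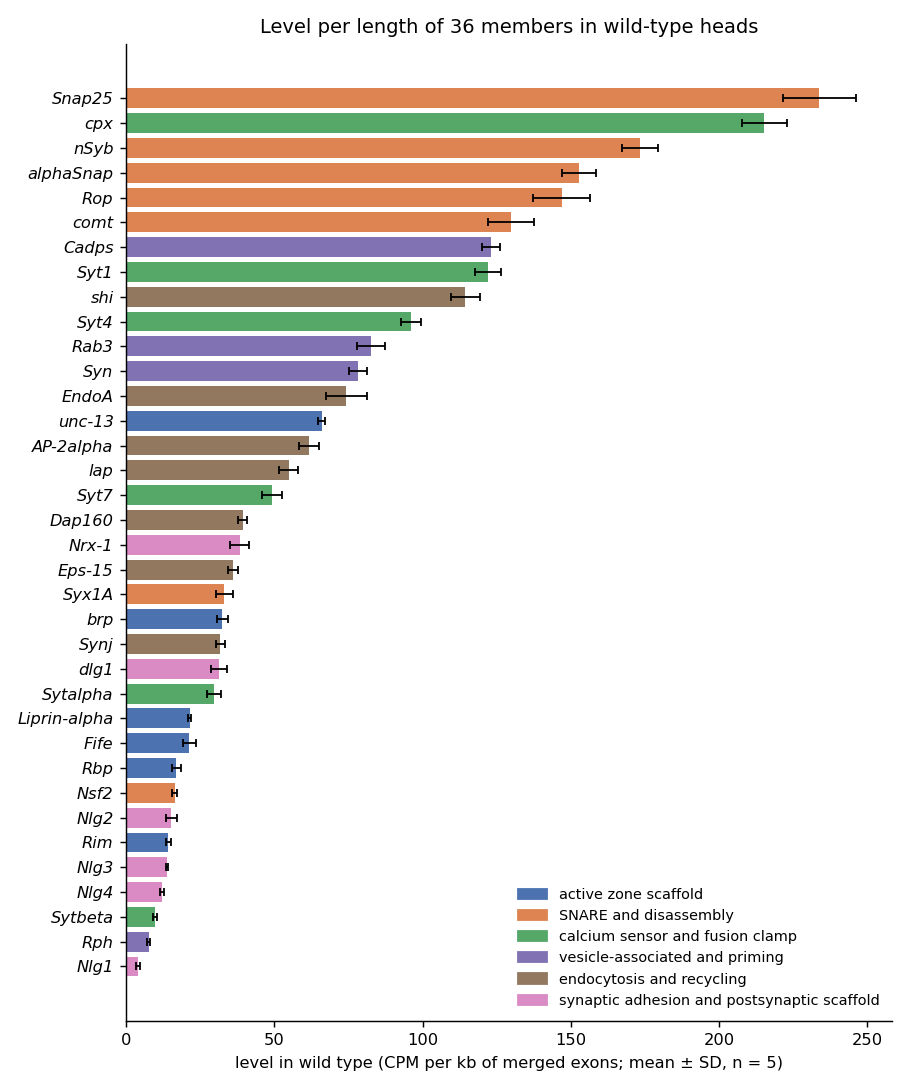
Level of the 36 members with reads in wild-type heads, as CPM per kb of merged exons (horizontal axis; bars give the mean and lines the SD over 5 libraries), coloured by role. Snap25 (234) and cpx (215) stand at the top and Nlg1 (3.94) at the bottom.

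Most members differed little between the genotypes. For 28 of the 36 tested members every log2 fold change, over the 5 comparisons between genotypes, was under 0.25 in size (77.8%, against 45.3% of all tested genes). The members that passed the test in no comparison were 15 (41.7%, against 53.8%), so that more of them than of all genes passed in at least 1. Each tested member had at least 200 counts in every library, while all tested genes reach down to the minimum on low counts. These shares are not matched for level. Summed over the list, the level was 13876 ± 378 CPM in wild type, 14236 ± 406 in Δfne, 13513 ± 284 in Δrbp9 and 13686 ± 113 in ΔfneΔrbp9 (SD, n = 5). The test was edgeR's quasi-likelihood F-test over all 20 libraries, with p-values adjusted by Benjamini-Hochberg over 10560 genes. A member passed at an adjusted p below 0.01 and was called if its log2 fold change was also above 0.5 in size, the cutoffs of the study. All comparisons with wild type share the wild-type libraries, and those with ΔfneΔrbp9 share its libraries.

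In Δfne, 4 members were higher than in wild type and 2 lower, where 9.44% and 9.69% of all tested genes were, and 1 was called, against 8.04% of all genes. In Δrbp9, 5 members were lower and 0 higher, where 11.8% of all genes were lower and 22.9% passed in either direction. There 0 members were called by edgeR, against 8.05% of all genes, and DESeq2 also called 0. An unadjusted p below 0.05 was found for 12 of the 36 members, where 44.7% of all genes had one. In ΔfneΔrbp9, 5 were higher and 6 lower than in wild type, where 11.9% of all genes were higher and 24.9% passed in either direction, and 2 were called, against 9.53% of all genes. Against Δfne, the double mutant had 2 members higher and 8 lower, where 8.92% and 10.1% of genes were, and 3 called, against 6.81%. Against Δrbp9 it had 6 higher and 7 lower, where 7.72% and 7.35% of genes were, and 2 called, against 4.66%. Single libraries moved several of these counts. Without replicate 3 of Δfne or 1 of wild type 3 members passed in Δfne, and without replicate 4 of either 0 were called. In Δrbp9, 3 passed without its replicate 3 or without replicate 1 of wild type. In ΔfneΔrbp9 against wild type, 7 passed without its replicate 1 or 5. Against Δfne, 2 were called without replicate 1 of either. Against Δrbp9, 0 were called without replicate 2 of Δrbp9 and 1 without replicate 1, 4 or 5 of ΔfneΔrbp9 or 4 or 5 of Δrbp9. The median log2 fold change over the 36 members lay between -0.03 and 0.03 in these comparisons, beside -0.01 to 0.01 over all tested genes. The members' median size of change, 0.06 to 0.11, was under that of all genes, 0.13 to 0.15. As above, members and all genes were not matched for level.

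**Figure D2:**
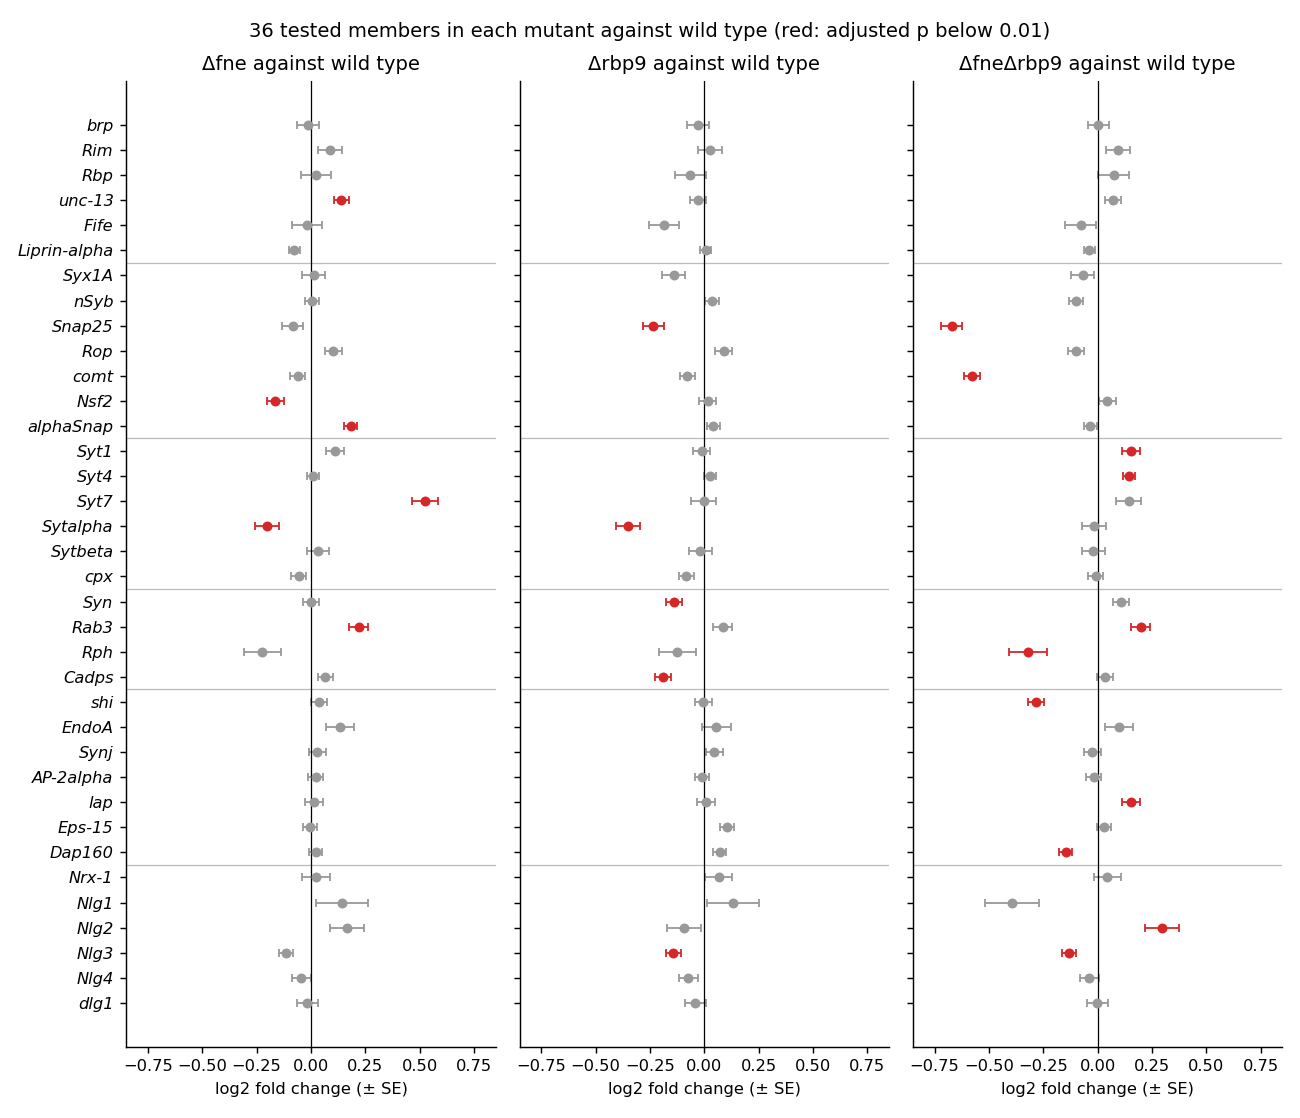
Log2 fold change of each of the 36 tested members against wild type in Δfne, Δrbp9 and ΔfneΔrbp9 (horizontal axis; points give the estimate and lines its SE), with roles separated by horizontal lines and members with an adjusted p below 0.01 in red. Most points lie within 0.25 of 0. Syt7 stands out in Δfne (0.52), and Snap25 (-0.67) and comt (-0.58) in ΔfneΔrbp9.

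The SNARE and disassembly genes held the 2 members called in ΔfneΔrbp9 against wild type. Snap25 (FBgn0011288, chromosome 3L, 24074180 to 24299205, plus strand) encodes the SNARE of the plasma membrane that pairs with syntaxin. Snap25 had 559.5, 559, 492, 522 and 536 CPM in wild type, 470.2, 528, 501, 535 and 483 in Δfne, 478, 437, 446, 449 and 459 in Δrbp9 and 332, 364, 321, 348 and 310.1 in ΔfneΔrbp9. All 5 double-mutant libraries lay below the 15 others. Its log2 fold change in ΔfneΔrbp9 was -0.67 ± 0.048 (SE) against wild type (adjusted p = 1.47e-09), -0.59 ± 0.048 against Δfne (1.63e-08) and -0.44 ± 0.048 against Δrbp9 (1.59e-06). Here and below, a fold change is followed by its SE and, in brackets, its adjusted p from this test. Snap25 was also lower in Δrbp9 than in wild type, by less (-0.23 ± 0.048, adjusted p = 0.000874), while the difference in Δfne, -0.08 ± 0.048, did not pass (0.205).

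The other was comt (FBgn0000346, X chromosome, 13259021 to 13262488, plus strand), which encodes NSF1, the ATPase that recycles SNARE complexes. The level of comt was 406, 406, 374, 383 and 435 CPM in wild type, 395, 377, 380.4, 390.1 and 378 in Δfne, 375, 384, 371, 395 and 374 in Δrbp9 and 278, 269.8, 268, 261 and 265 in ΔfneΔrbp9. The double-mutant libraries again lay below all others, and the single mutants overlapped wild type. Against wild type the log2 fold change of comt in ΔfneΔrbp9 was -0.58 ± 0.036 (adjusted p = 1.93e-10), against Δfne -0.52 ± 0.036 (1.53e-09) and against Δrbp9 -0.50 ± 0.036 (6.43e-09). The last of these sits at the fold cutoff: it was -0.496 with DESeq2 and ran from -0.52 to -0.486 when single libraries were left out, and it was no longer called with RLE scaling or without replicate 4 or 5 of ΔfneΔrbp9 or replicate 2 or 4 of Δrbp9. The gene lies 309 kb from fne, the nearest member to it, and in Δfne its log2 fold change was -0.06 ± 0.036 (adjusted p = 0.217).

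Nsf2, the second NSF gene of the fly, did not move with comt. Nsf2 had 59.9, 61.2, 56.7, 55.8 and 53.7 CPM in wild type, 50.3, 51.8, 50.01, 53.1 and 51.3 in Δfne, 58.1, 59.8, 58.3, 54.9 and 59.4 in Δrbp9 and 58.1, 63.4, 59.4, 56.8 and 58.3 in ΔfneΔrbp9. Here it was the 5 Δfne libraries that lay below the rest. The log2 fold change of Nsf2 was -0.16 ± 0.039 in Δfne against wild type (adjusted p = 0.00344) and 0.21 ± 0.039 in ΔfneΔrbp9 against Δfne (0.000443), and it was 0.04 ± 0.039 in ΔfneΔrbp9 against wild type (0.415). The first difference no longer passed without replicate 3 of Δfne or replicate 1 or 2 of wild type, with an adjusted p of up to 0.0136, or when only the groups compared were fitted (0.0212).

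The NSF adaptor alphaSnap was higher in Δfne alone. The alphaSnap level was 317, 335, 309.5, 315 and 304 CPM in wild type, 352, 360.1, 359, 368 and 355 in Δfne, 322, 325, 328, 320.2 and 330.5 in Δrbp9 and 313, 317, 296, 315 and 303 in ΔfneΔrbp9. The 5 Δfne libraries were above all others, and the log2 fold changes were 0.18 ± 0.029 against wild type (adjusted p = 6.94e-05) and -0.22 ± 0.029 for ΔfneΔrbp9 against Δfne (1.00e-05). Rop, whose protein binds syntaxin and guides SNARE assembly, had 397, 381, 354, 382 and 424 CPM in wild type, 436, 412, 400.2, 409.8 and 423 in Δfne, 409, 415, 410.3, 421 and 406 in Δrbp9 and 374, 357, 356, 365 and 357 in ΔfneΔrbp9. The double mutant was below both single mutants, by -0.20 ± 0.038 against Δfne (adjusted p = 0.000397) and -0.19 ± 0.038 against Δrbp9 (0.00106), with no overlap, and it overlapped wild type (-0.10 ± 0.038, 0.0478).

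The remaining SNAREs moved less. The vesicle SNARE nSyb had 686 to 748 CPM in wild type and 652 to 672 in ΔfneΔrbp9 and was lower in the double mutant than in Δrbp9 (-0.14 ± 0.032, adjusted p = 0.00357), which no longer passed without replicate 5 of ΔfneΔrbp9 or replicate 2 or 4 of Δrbp9 (adjusted p up to 0.0111). The syntaxin gene Syx1A passed in no comparison, with 126 to 155 CPM in wild type and 124 to 135 in ΔfneΔrbp9. Its exons share 10.7% of their length with eIF4EHP on the same strand, so its reads are uncertain in part. Over the 7 genes of the group, 2 passed in ΔfneΔrbp9 against wild type (28.6%), and both were lower. Of all tested genes 24.9% passed in either direction and 11.9% passed as higher. Against Δfne 4 were lower and 1 higher, where 10.1% and 8.92% of all genes were, and against Δrbp9 4 were lower, where 7.35% were. Their summed level was 2539 ± 94.4 CPM in wild type, 2561 ± 48.5 in Δfne, 2478 ± 33.0 in Δrbp9 and 2122 ± 34.1 in ΔfneΔrbp9 (SD, n = 5), which is 83.6% of wild type in the double mutant. This sum includes Snap25 and comt, and the 5 other genes did not pass by edgeR in ΔfneΔrbp9 against wild type. Their log2 fold changes ran from -0.10 for nSyb to 0.04 for Nsf2. The summed level of the neuron markers in ΔfneΔrbp9 was 97.5% of wild type, but the 4 markers did not move together. Against wild type futsch passed and was lower (-0.29 ± 0.060). The markers elav (0.11 ± 0.038), nrv3 (0.07 ± 0.048) and Appl (0.11 ± 0.046) were higher and did not pass.

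**Figure D3:**
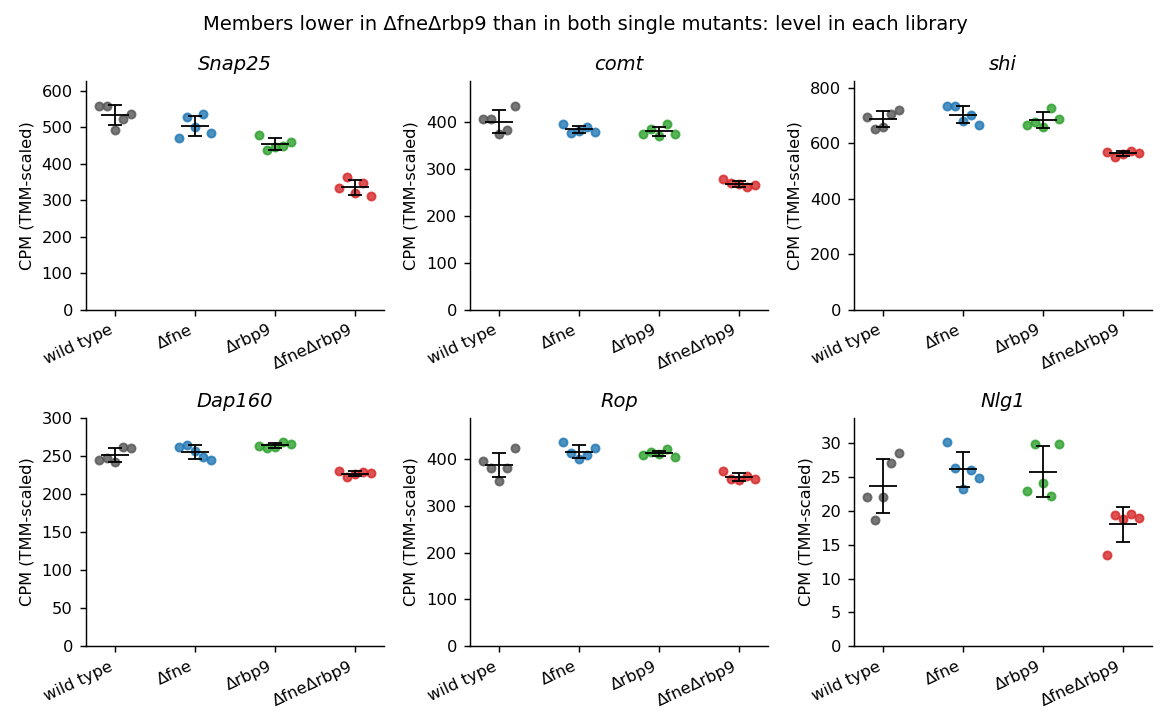
CPM in each library (points) with the mean and SD over 5 libraries (black lines) for 6 members by genotype, on vertical axes that start at 0. In Snap25, comt, shi and Dap160 the ΔfneΔrbp9 points lie below those of the other 3 genotypes, while Rop and Nlg1 overlap wild type.

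The endocytosis group held 2 further members that were lower in ΔfneΔrbp9 than in each of the other 3 genotypes. The dynamin gene shi (FBgn0003392, X chromosome, 15892116 to 15906716, plus strand), whose GTPase pinches vesicles off the membrane, had 693, 651, 659.6, 705 and 718 CPM in wild type, 736, 733, 678, 703 and 667 in Δfne, 664, 678, 659, 728 and 688 in Δrbp9 and 569, 552, 559.6, 572 and 564 in ΔfneΔrbp9. The single mutants lay within or around the wild-type range and the double mutant below it, without overlap. The log2 fold change of shi in ΔfneΔrbp9 was -0.28 ± 0.037 against wild type (adjusted p = 5.24e-06), -0.32 ± 0.037 against Δfne (1.59e-06) and -0.28 ± 0.037 against Δrbp9 (1.69e-05), under the fold cutoff for a call. Dap160, an intersectin that binds dynamin and gathers endocytic proteins around the active zone, had 245, 247, 243, 262 and 261 CPM in wild type, 262, 265, 257, 248 and 245 in Δfne, 264, 260.4, 262, 268 and 266 in Δrbp9 and 231, 222, 226, 229 and 228 in ΔfneΔrbp9. Its change was smaller, at -0.15 ± 0.030, -0.17 ± 0.030 and -0.22 ± 0.030 in the same order (adjusted p = 0.000638, 0.000219 and 2.52e-05).

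Thus 4 members, Snap25, comt, shi and Dap160, were lower in ΔfneΔrbp9 than in all 3 other genotypes at an adjusted p below 0.01, which is 11.1% of the 36 tested, where 242 of 10560 tested genes (2.29%) were. One member, Syt4, was higher against all 3, where 1.88% of genes were. As above, members and all genes were not matched for level, and the list was chosen with earlier results of these data known. The double-mutant libraries lay wholly below those of wild type for 7 members and wholly above for 5, where 12.1% and 11.1% of all tested genes were so placed. These 4 genes kept the test against each genotype in every alternative tried, including without the 3 libraries that correlate least with their own groups.

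Of the rest of the endocytic group 1 gene passed, in 1 comparison. The clathrin adaptor gene lap, the fly AP180, had 350.0, 321, 316, 342 and 362 CPM in wild type, 342, 357, 336, 336 and 337 in Δfne, 319, 338, 336, 368 and 338 in Δrbp9 and 384, 367, 378, 376 and 375 in ΔfneΔrbp9. It was higher in ΔfneΔrbp9 than in wild type (0.15 ± 0.040, adjusted p = 0.00526), which no longer passed without replicate 1, 3, 4 or 5 of ΔfneΔrbp9 or replicate 2 or 3 of wild type (adjusted p up to 0.0191) or when only the groups compared were fitted (0.0241). EndoA, Synj, AP-2alpha and Eps-15, which encode endophilin, synaptojanin, an AP-2 subunit and an EPS15 homolog, passed in no comparison. Their log2 fold changes against wild type ranged from -0.03 for Synj in ΔfneΔrbp9 to 0.13 for EndoA in Δfne. In the single mutants 0 of the 7 tested endocytosis genes passed by edgeR or by DESeq2. By edgeR, 19.1% of all tested genes passed in Δfne and 22.9% in Δrbp9. An unadjusted p below 0.05 was found for 0 in Δfne and 2 in Δrbp9, where 40.4% and 44.7% of all genes had one.

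Among calcium sensors the largest difference was in Δfne. Syt7 (FBgn0039900, chromosome 4, 278685 to 306481, minus strand) encodes a synaptotagmin that is known in mammals for its high calcium affinity. Syt7 had 170.0, 178, 158, 150.1 and 158 CPM in wild type, 221, 231, 230.1, 269 and 220.0 in Δfne, 170.3, 159.8, 155, 167 and 161 in Δrbp9 and 172, 193, 184, 186 and 164 in ΔfneΔrbp9. The Δfne libraries lay above all others, with replicate 4 the highest. Against wild type the log2 fold change was 0.52 ± 0.058 (adjusted p = 7.79e-07), the single member called in a single mutant, and ΔfneΔrbp9 was lower than Δfne by -0.38 ± 0.058 (4.29e-05). In ΔfneΔrbp9 against wild type the difference was 0.14 ± 0.058 and did not pass (0.0629). Without replicate 4 of Δfne the value fell to 0.47, under the fold cutoff, and it was also under the cutoff without replicate 4 of wild type.

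Sytalpha, another synaptotagmin family gene, was lower in both single mutants. Sytalpha had 94.3, 92.9, 87.7, 88.9 and 107 CPM in wild type, 90.0, 83.3, 79.3, 76.3 and 80.5 in Δfne, 72.7, 76.4, 68.0, 79.5 and 72.6 in Δrbp9 and 96.5, 96.3, 93.4, 89.4 and 89.3 in ΔfneΔrbp9. The Δrbp9 libraries lay below all of wild type and below all of ΔfneΔrbp9, while the double mutant and wild type overlapped. The log2 fold change was -0.35 ± 0.055 in Δrbp9 (adjusted p = 5.61e-05), -0.20 ± 0.055 in Δfne (0.00786) and -0.02 ± 0.055 in ΔfneΔrbp9 (0.827) against wild type. ΔfneΔrbp9 was above Δrbp9 by 0.33 ± 0.055 (0.000167). The Δfne difference passed only when no library, or replicate 1 of Δfne or 3 or 4 of wild type, was left out (adjusted p up to 0.0265 without any other), and it did not pass when only the groups compared were fitted or low genes were kept (up to 0.0542).

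Syt4, a synaptotagmin known from retrograde signalling at the fly neuromuscular junction, had 301, 309.8, 282, 295 and 302 CPM in wild type, 298, 300.1, 303, 301 and 297 in Δfne, 309, 298, 298, 310.4 and 303 in Δrbp9 and 339, 331, 329, 324 and 322 in ΔfneΔrbp9. The double mutant was above the other 3 genotypes without overlap. Its log2 fold changes were small, 0.14 ± 0.027 against wild type (adjusted p = 0.000343), 0.13 ± 0.027 against Δfne (0.000858) and 0.12 ± 0.027 against Δrbp9 (0.00371). The last no longer passed with total count scaling and without replicate 1 of ΔfneΔrbp9 or replicate 2 or 3 of Δrbp9 (adjusted p up to 0.0286), and the first when only the groups compared were fitted (0.0106).

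Syt1, the main calcium sensor for fast release, had 845 to 925 CPM in wild type, 888 to 1019 in Δfne, 824 to 931 in Δrbp9 and 943 to 991 in ΔfneΔrbp9. The double mutant was higher than wild type (0.15 ± 0.041, adjusted p = 0.00667) and than Δrbp9 (0.16 ± 0.041, 0.00586), but neither was robust to single libraries. The first passed only without replicate 1 of ΔfneΔrbp9 or 5 of wild type and the second only without replicate 4 of Δrbp9 among the libraries left out in turn (adjusted p up to 0.0225). Neither passed with low genes kept, nor did the first when only the groups compared were fitted or the second with total count scaling (up to 0.028). Syt1 is the member nearest to Rbp9, 155 kb away on 2L, and its log2 fold change in Δrbp9 was -0.01 ± 0.041 (adjusted p = 0.84). The fusion clamp cpx had 2538, 2539, 2339, 2406 and 2462 CPM in wild type, 2325, 2345, 2362, 2508 and 2268 in Δfne, 2323, 2292, 2254, 2344 and 2389.6 in Δrbp9 and 2396, 2608, 2429.9, 2395 and 2369 in ΔfneΔrbp9. It passed in no comparison, and its genotypes overlapped throughout. Sytbeta, at 40.3 to 48.4 CPM in wild type and 41.4 to 48.2 in ΔfneΔrbp9, passed in none either.

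**Figure D4:**
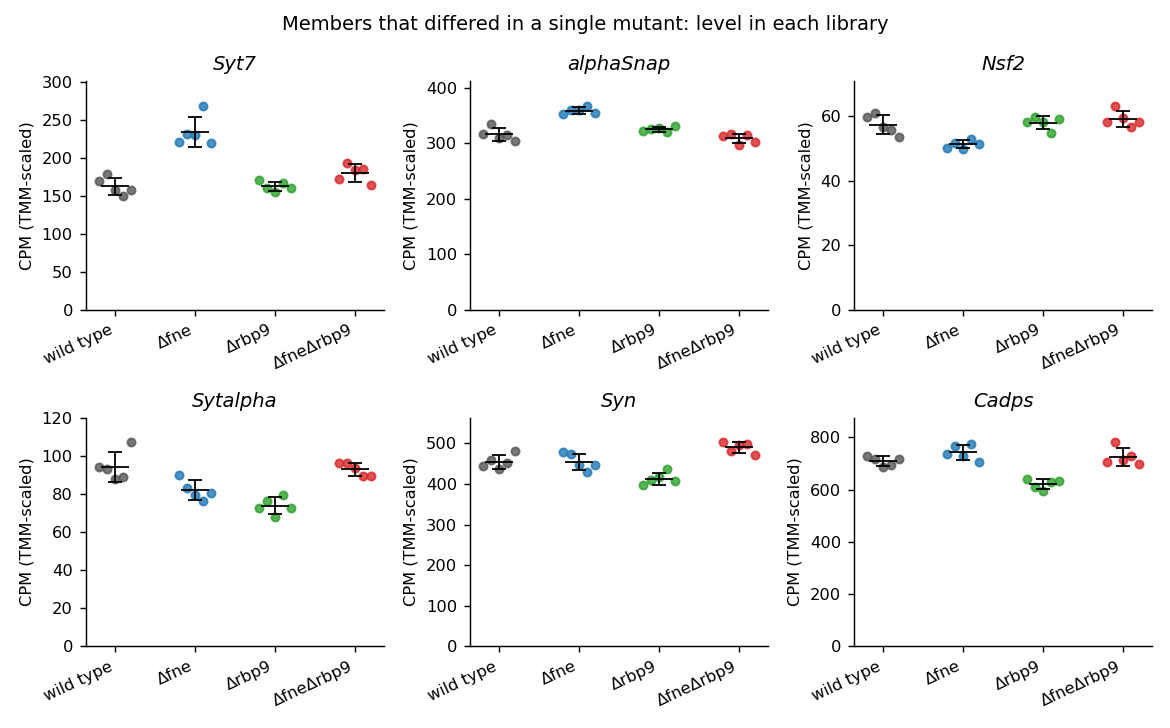
CPM in each library (points) with the mean and SD over 5 libraries (black lines) for 6 members by genotype, on vertical axes that start at 0. Syt7 and alphaSnap are highest and Nsf2 lowest in Δfne, and Sytalpha, Syn and Cadps are lowest in Δrbp9, where Sytalpha and Syn overlap another genotype in part.

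Vesicle-associated and priming genes differed mainly in Δrbp9 and in Rab3. Cadps had 729.8, 718, 688, 693 and 716 CPM in wild type, 738, 766, 727, 775 and 706 in Δfne, 641, 609.7, 594, 629.7 and 631 in Δrbp9 and 706, 781, 715, 729 and 697 in ΔfneΔrbp9. The Δrbp9 libraries lay below all others, at -0.19 ± 0.036 against wild type (adjusted p = 0.000419), and ΔfneΔrbp9 was above Δrbp9 by 0.22 ± 0.036 (0.000132) and close to wild type (0.03 ± 0.036, 0.509). Syn, the synapsin gene, whose protein tethers vesicles in the reserve pool, had 444, 459, 436, 452 and 482 CPM in wild type, 478, 473, 447, 430.3 and 446 in Δfne, 398, 409, 417, 437 and 406 in Δrbp9 and 503, 482, 496, 498 and 471 in ΔfneΔrbp9. Its highest Δrbp9 library just reached the lowest of wild type, and the difference was -0.14 ± 0.037 (0.00654). Of the 10 libraries left out in turn, it still passed only without replicate 4 of Δrbp9 or 3 of wild type (adjusted p up to 0.0354), and it no longer passed with total count scaling, with low genes kept or when only the groups compared were fitted (up to 0.0405). The double mutant was above Δrbp9 (0.25 ± 0.037, 5.70e-05) without overlap. The neuron markers also read lower in Δrbp9, at 92.1% of wild type in sum, with 1 of 4, Appl, past the test. So did the sums of glial (88.1%), photoreceptor (86.1%), muscle (81.4%) and fat body markers (93.9%).

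Rab3, a vesicle GTPase, had 305, 298, 294, 317 and 338 CPM in wild type, 385, 374, 346, 351 and 352 in Δfne, 326, 324, 312, 358 and 323 in Δrbp9 and 370.2, 351, 360.5, 350.3 and 349 in ΔfneΔrbp9. Rab3 was higher by 0.22 ± 0.044 in Δfne (adjusted p = 0.000673) and 0.20 ± 0.044 in ΔfneΔrbp9 (0.00131) against wild type, and both differences passed in every alternative. In Δrbp9 its difference was 0.08 ± 0.044 (0.146). In ΔfneΔrbp9 against Δrbp9 the Rab3 difference was 0.11 ± 0.044 and did not pass (0.0591), with overlapping libraries. Rph, the rabphilin gene, whose protein binds Rab3, was low, with 28.2 to 33.7 CPM in wild type and 19.4 to 28.1 in ΔfneΔrbp9. Rph was lower in the double mutant than in wild type (-0.32 ± 0.086, adjusted p = 0.0064), which no longer passed without replicate 1, 2 or 4 of ΔfneΔrbp9 or replicate 4 or 5 of wild type (adjusted p up to 0.0211) or when only the groups compared were fitted (up to 0.0229).

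Of the 6 active zone scaffold genes, unc-13 in Δfne alone passed in any comparison. With 6 genes and 15.1% to 24.9% of all tested genes passing in a comparison between genotypes, 0 or 1 is near the general rate. It encodes the Unc13 protein that primes vesicles. Its level was 1509, 1523, 1489, 1481 and 1450.1 CPM in wild type, 1618, 1723, 1653, 1719.7 and 1500.0 in Δfne, 1497, 1453, 1432, 1419 and 1511 in Δrbp9 and 1529, 1633, 1532, 1554 and 1574 in ΔfneΔrbp9. The difference in Δfne was 0.14 ± 0.036 (adjusted p = 0.00617) and, of the 10 libraries left out in turn, still passed only without replicate 1 or 5 of Δfne or 2 of wild type (adjusted p up to 0.0204). It did not pass with low genes kept or when only the groups compared were fitted (up to 0.0475). Reads of unc-13 are uncertain in part, since 6% of its exon length is shared with annotated transposon copies on its strand and 5696 bp with genes on the other strand, and the strand setting of the counting was not given in the sources used here. brp had 409.8 to 466 CPM in wild type and 416 to 457 in ΔfneΔrbp9, a log2 fold change of 0.00 ± 0.049 (adjusted p = 0.966). Rim, Rbp (the RIM-binding protein, which is unrelated to RBP9), Fife and Liprin-alpha ranged from -0.19 for Fife in Δrbp9 to 0.09 for Rim in ΔfneΔrbp9 against wild type. In the 4 comparisons other than Δfne with wild type, 0 scaffold genes passed by edgeR or DESeq2. An unadjusted p below 0.05 was found for 1 in Δrbp9, 0 in ΔfneΔrbp9 against wild type, 0 against Δfne and 1 against Δrbp9. Of all tested genes, 38.2% to 44.7% had one in these comparisons.

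Among adhesion genes, Nlg1 stood apart. Nlg1 (FBgn0051146, chromosome 3R, 7658247 to 7694874, plus strand) encodes a postsynaptic neuroligin. It had the lowest level of the tested members, 22.0, 18.7, 22.0, 27.0 and 28.6 CPM in wild type, 30.2, 26.4, 23.3, 26.1 and 24.8 in Δfne, 22.9, 29.9, 24.1, 22.3 and 29.9 in Δrbp9 and 13.5, 19.4, 18.7, 19.6 and 18.9 in ΔfneΔrbp9. The double mutant lay below both single mutants and overlapped wild type, with replicate 1 the lowest. The log2 fold change in ΔfneΔrbp9 was -0.54 ± 0.12 against Δfne (adjusted p = 0.00236), -0.52 ± 0.12 against Δrbp9 (0.00378) and -0.39 ± 0.12 against wild type (0.0173), the last of which did not pass. Without replicate 1 of ΔfneΔrbp9 the first 2 fell to -0.45 and -0.44 and were no longer called. The call against Δfne was also lost without replicate 1 of Δfne, and that against Δrbp9 without replicate 2 or 5 of Δrbp9. Reads of Nlg1 are uncertain in part, since 4.05% of its exon length is shared with an annotated transposon copy on its strand.

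Nlg2, a second neuroligin gene, had 76.998 to 102 CPM in wild type, 89.9 to 103.99 in Δfne, 75.2 to 90.8 in Δrbp9 and 90.0 to 114 in ΔfneΔrbp9. The double mutant was above Δrbp9 by 0.39 ± 0.078 (adjusted p = 0.00108) and above wild type by 0.30 ± 0.078 (0.00563), the second no longer passing without replicate 1, 3 or 5 of ΔfneΔrbp9 or 1, 2 or 3 of wild type (adjusted p up to 0.0196) or when only the groups compared were fitted (0.0282). Nlg3 was lower in Δrbp9 (-0.14 ± 0.033, 0.00226) and in ΔfneΔrbp9 (-0.13 ± 0.033, 0.00374) than in wild type. The first no longer passed without replicate 3 of Δrbp9 or 1 of wild type (adjusted p up to 0.0123) or with total count scaling, and the second without replicate 1 or 5 of ΔfneΔrbp9 or 1 of wild type (up to 0.0152). Neither passed without the 3 libraries that correlate least with their own groups, and nor did Rph, Syn in Δrbp9, Sytalpha in Δfne or Syt1 against Δrbp9. Nlg4 passed in no comparison and nor did dlg1, the Discs large scaffold of the postsynaptic side. Neither did Nrx-1, the neurexin gene, which had 373, 380.1, 408, 438 and 449.9 CPM in wild type, 445, 461, 411, 372 and 392 in Δfne, 409, 424, 424, 467 and 419.8 in Δrbp9 and 433, 382, 447, 426 and 425 in ΔfneΔrbp9, with all genotypes overlapping.

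Whether the single-mutant differences add up was tested with the interaction on the log2 scale. The interaction is the double-mutant difference from wild type minus the sum of the single-mutant differences. It passed for 10 of the 36 members, 8 of them negative and 2 positive, where 8.07% and 8.48% of all tested genes were. The number also past the fold cutoff was 2 of 36, where 8.97% of all genes were. These shares, too, were not matched for level. The 8 negative members were Snap25 (-0.35 ± 0.068), Rop (-0.29 ± 0.054), comt (-0.44 ± 0.051), alphaSnap (-0.26 ± 0.042), Syt7 (-0.38 ± 0.082), shi (-0.32 ± 0.053), Dap160 (-0.24 ± 0.042) and Nlg1 (-0.67 ± 0.17). Their adjusted p ran from 2.50e-06 for comt to 0.00668 for Nlg1. Thus 4 of the 7 SNARE and disassembly genes were lower in ΔfneΔrbp9 than the single-mutant differences add up to. The adjusted p was 0.000102 for alphaSnap, 0.000407 for Rop and 0.000625 for Snap25.

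The negative values came about in different ways. For Snap25 the double-mutant difference, -0.67, exceeded the sum of the single ones, -0.32. For comt it was -0.58 against a sum of -0.14, and for shi -0.28 against 0.03. In Syt7 and alphaSnap the Δfne rise was not seen in the double mutant, where the differences were 0.14 and -0.03 against sums of 0.52 and 0.22. The positive members were Sytalpha (0.54 ± 0.078, adjusted p = 3.47e-05) and Syn (0.25 ± 0.052, 0.00136), both lower in Δrbp9 and near or above wild type in the double mutant. The Nlg1 value no longer passed without replicate 1, 2 or 4 of Δfne, 2 or 5 of Δrbp9, 1 or 3 of ΔfneΔrbp9 or 1, 2 or 3 of wild type (adjusted p up to 0.0153). That of Sytalpha fell under the fold cutoff, to 0.47, without replicate 5 of wild type, and it was also under the cutoff with total count scaling and without the 3 libraries that correlate least with their own groups. The other 8 interaction values held in every alternative.

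**Figure D5:**
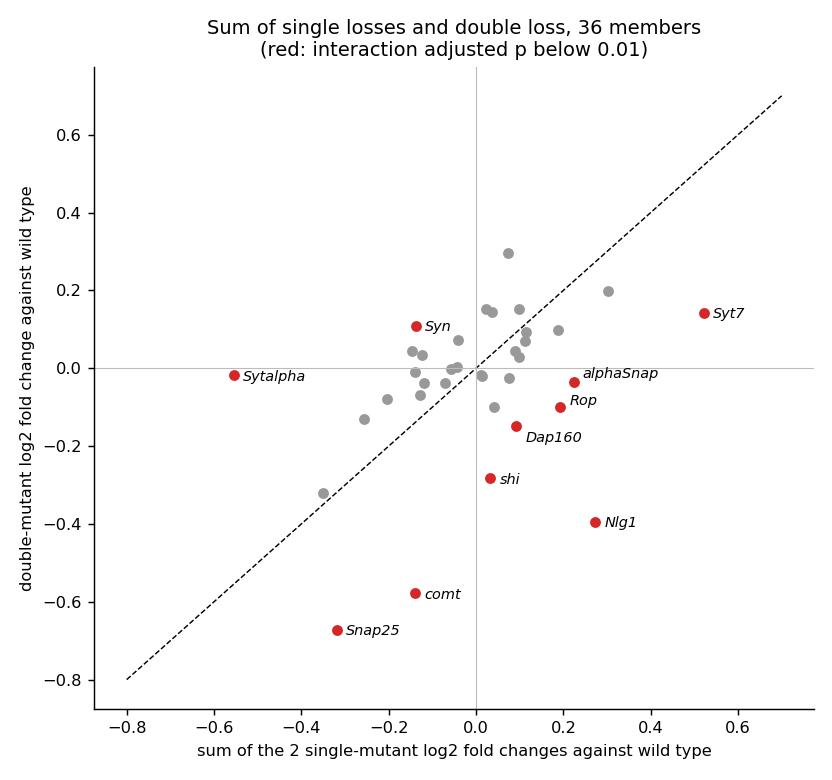
Double-mutant log2 fold change against wild type (vertical axis) and sum of the Δfne and Δrbp9 log2 fold changes against wild type (horizontal axis) for 36 members, with the dashed line where they are equal. The 10 members whose interaction passed at an adjusted p below 0.01 are red and named, with 8 below the line and 2, Sytalpha and Syn, above it.

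Gene lengths were set beside the interaction as a description. The 8 negative members had a median merged exon length of 3198 bp, and the 26 members that did not pass had 5960 bp, with ranges of 2070 to 6395 bp and 3103 to 22598 bp that overlapped. Of the 2 positive members, Sytalpha had 3190 bp and Syn 5803 bp, and the negative Dap160, Nlg1 and shi lay above the median of the members that did not pass. The gene spans of the negative members ran from 2638 bp for Rop to 225026 bp for Snap25. In Δrbp9 against wild type, the log2 fold changes of the 36 members had a Spearman correlation of -0.49 with gene span, and over 10351 annotated genes tested it was -0.12. In Δfne the members' value was -0.06 and that of all genes -0.08, and in ΔfneΔrbp9 they were 0.03 and -0.04. With exon length the members' values were -0.006 in Δfne, -0.09 in Δrbp9 and 0.19 in ΔfneΔrbp9. The -0.49 was thus the largest in size of the members' values examined. Genes are not independent replicates, and all points share the same libraries. The members lie on all large chromosome arms, with 13 on 3R, 6 each on 2L, 3L and X, 4 on 2R and 3 on chromosome 4.

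A second list of 48 further genes of the vesicle cycle, 45 of them tested, showed how the wider pathway fared. It was made of calcium channels and other active zone genes, SNARE regulators and paralogs, vesicle proteins and transporters, other endocytic genes and adhesion genes. Of these, 8 were higher and 3 lower in Δfne than in wild type (24.4% in all, against 19.1% of all tested genes), 6 higher and 8 lower in Δrbp9 (31.1% against 22.9%), and 10 higher and 8 lower in ΔfneΔrbp9 (40% against 24.9%). In ΔfneΔrbp9, 6 were higher and 6 lower than in Δfne (26.7% against 19.0%), and 6 higher and 3 lower than in Δrbp9 (20% against 15.1%). The 1 gene called between genotypes, where 4.66% to 9.53% of all genes were, was Syt12, a synaptotagmin family gene, which had 46.3, 47.5, 51.2, 51.4 and 50.7 CPM in wild type, 42.6, 45.3, 42.0, 42.8 and 40.4 in Δfne, 35.6, 40.6, 35.9, 38.5 and 41.7 in Δrbp9 and 33.3, 30.6, 30.1, 34.0 and 32.5 in ΔfneΔrbp9. The double mutant lay below the others without overlap, at -0.62 ± 0.051 against wild type (adjusted p = 8.79e-09). Both single mutants were also below wild type, by -0.21 ± 0.050 in Δfne (0.00295) and -0.36 ± 0.051 in Δrbp9 (1.70e-05), and the interaction of -0.05 ± 0.072 did not pass (0.656).

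The interaction passed for 3 of these genes above 0 and 4 below (15.6%, against 16.5% of all genes), and it was called, as for 8.97% of all genes, for Frq1, a frequenin, a calcium-binding regulator of release. Frq1 had 93.1, 85.2, 88.7, 91.1 and 90.7 CPM in wild type, 91.1, 95.8, 82.8, 88.8 and 83.6 in Δfne, 77.9, 83.3, 84.7, 86.8 and 88.2 in Δrbp9 and 112, 123, 124, 113 and 120.4 in ΔfneΔrbp9. The double mutant lay above all other libraries, at 0.40 ± 0.045 against wild type (adjusted p = 6.53e-07), with -0.02 ± 0.045 in Δfne (0.755) and -0.09 ± 0.045 in Δrbp9 (0.117) and an interaction of 0.52 ± 0.063 (5.03e-06). The Frq1 interaction lay near the fold cutoff of 0.5. Alternatives, including libraries left out in turn, were examined for the members only and not for this second list. Over the 45 genes the median log2 fold change against wild type was 0.00 in Δfne and ΔfneΔrbp9 and -0.01 in Δrbp9.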

How the data were processed

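The labels put 5 head libraries in each of 4 genotypes. The authors prepared ribosome-depleted stranded libraries and deposited raw counts per gene, with STAR, featureCounts of Subread and the dm6 genome named in the submitters' processing notes, without versions, and snakePipes with an Ensembl release 96 annotation in the study's methods. The deposited counts were not normalized. How multimapping reads were counted, and the strand setting, were not given in the sources used here. A second table gives the authors' own DESeq2 test between the double mutant and wild type (base mean, log2 fold change, SE, test statistic, p-values) and was not used here.

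Counts were tested with edgeR 4.0.16 (limma 3.58.1, R 4.3.3), by a two-sided quasi-likelihood F-test with TMM factors in one fit of all 20 libraries by genotype. The 10560 genes with a mean normalized count above 10 were tested, with Benjamini-Hochberg adjustment. The cutoffs, an adjusted p below 0.01 and, for calls, a log2 fold change above 0.5 in size, are those of the study. Fitted fold changes are on the log2 scale, and levels are CPM with TMM factors, divided by merged exon length in kb between genes. Symbols, positions and lengths came from Ensembl release 115 (BDGP6), which matched 17252 IDs. The fit was tested on simulated data.

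The members and lists were chosen with earlier results of these data known. Values in all libraries were printed for each member called in a comparison, the 3 higher and 3 lower members with the smallest p that passed in each comparison, and the most abundant member per length of each role. Rop and Dap160 were added after their values were seen. Of the second list, genes called in a comparison were named.

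Total counts were 10289950 to 25325636 per library. The tested members with the fewest counts were Nlg1 (at least 200) and Rph (at least 235), whose counting error, 7.07% and 6.52% at those counts, was below their spread over wild-type libraries (17.1% and 8.15%). For Nlg3 and Liprin-alpha the counting error at the lowest count, 3.36% and 2.76%, was above the wild-type spread (1.92% and 2.56%). Replicates differed beyond counting error, with a smallest chi-square per degree of freedom of 5.46 over 40 pairs within genotypes. The study's methods call the replicates independent, while the labels do not say whether they came from separate flies, and p-values measure the spread between these libraries. Alternatives were RLE and total count scaling, DESeq2 1.42.0, no filter on low counts, only the groups compared in the fit, a replicate block, each library left out and, chosen after seeing the data, replicate 5 of wild type, Δfne and ΔfneΔrbp9 left out together, the libraries with the lowest median correlation with their own genotype (0.988 to 0.990).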

Additional observations from a re-analysis of the deposited data

Results flagged for a closer look

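In 11 of 144 groups of 5 libraries (36 members in 4 genotypes), the highest or lowest library stood far from the rest by Dixon's test, and chance flags about 1 in 20 groups. Of these, 2 touch calls in the report: Syt7 in Δfne, where replicate 4 had 269.2 CPM and the next library 231.2, and Nlg1 in ΔfneΔrbp9, where replicate 1 had 13.49 CPM and the next 18.74. In replicate 4 of Δrbp9 the levels of EndoA (366.0 CPM), Nrx-1 (467.3 CPM) and dlg1 (373.8 CPM) were above the other 4 libraries. In replicate 2 of ΔfneΔrbp9, cpx was high (2608 CPM) and Synj (137.6 CPM) and dlg1 (344.4 CPM) were low. The others were Rbp in replicate 1 of Δrbp9 (134.6 CPM, low), Sytbeta in replicate 5 of ΔfneΔrbp9 (48.23 CPM, high) and lap in replicate 2 of Δfne (356.5 CPM, high).

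For 10 members the double-mutant difference from wild type departed from the sum of the single-mutant differences, by the interaction test with an adjusted p below 0.01 (edgeR). On the log2 scale the interaction was -0.35 for Snap25, -0.29 for Rop, -0.44 for comt, -0.26 for alphaSnap, -0.38 for Syt7, -0.32 for shi, -0.24 for Dap160 and -0.67 for Nlg1, and it was 0.54 for Sytalpha and 0.25 for Syn.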

How the results depend on the processing

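Of 55 member values past the adjusted p threshold, 35 stayed on their side of the thresholds under every alternative and 20 did not under at least 1. Of 1025 alternative values of these, 897 kept their side, 128 no longer passed or fell under the fold cutoff and 0 reversed. With only the groups compared in the fit, 3 members passed in Δfne against wild type in place of 6, and 6 in ΔfneΔrbp9 against wild type in place of 11. Members called in ΔfneΔrbp9 against Δrbp9 fell from 2 to 1 with RLE scaling and with DESeq2, and by the interaction from 2 to 1 with total count scaling and without the 3 libraries left out together. The median log2 fold change of the members moved to 0.0285 in Δrbp9 against wild type, -0.0028 in ΔfneΔrbp9 against Δrbp9 and -0.0447 for the interaction with total count scaling, and to 0.0204 in ΔfneΔrbp9 against wild type and -0.0724 for the interaction without the 3 libraries. The causes were not tested.

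When each library was left out in turn, calls ranged from 0 to 1 in Δfne against wild type (0 without replicate 4 of either), from 0 to 2 in ΔfneΔrbp9 against Δrbp9 (0 without replicate 2 of Δrbp9) and from 1 to 2 for the interaction. Members that passed ranged from 3 to 6 in Δfne (3 without its replicate 3 or without wild-type replicate 1), from 3 to 6 in Δrbp9 (3 without its replicate 3 or without wild-type replicate 1) and from 7 to 11 in ΔfneΔrbp9 (7 without its replicate 1 or 5), each against wild type. The median ranged from -0.0181 to 0.0234 in ΔfneΔrbp9 against wild type and from -0.0382 to 0.0249 for the interaction.

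The replicate numbers showed no clear pairing of the libraries. Deviations of same-numbered libraries from their group means had a median correlation of 0.0215 over 30 pairs (range -0.395 to 0.517, 9 above 0.1). Over 120 other pairs between genotypes the median was -0.00816 (range -0.418 to 0.488). Of the 20 libraries, 6 correlated best with their own number. With the replicate block, 4 members passed in Δfne, 4 in Δrbp9 and 8 in ΔfneΔrbp9 against wild type, and calls were 1, 0 and 2, as without it. Against Δrbp9, 11 members passed in ΔfneΔrbp9 in place of 13. The block ended the differences of Rph, Syt1 and lap in ΔfneΔrbp9, of Syn in Δrbp9 and of Sytalpha and unc-13 in Δfne, each against wild type, and of nSyb and Syt1 in ΔfneΔrbp9 against Δrbp9, and it ended no other. For every tested member, counting error at its lowest count was at most 7.07%.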
